A study of Drosophila melanogaster with 6 samples.

Results

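The salivary glue genes of Drosophila melanogaster are described here as they appear in a comparison of wing discs with haltere discs. The genes were chosen by name from the salivary gland secretion genes, with their fold changes in this same comparison already known. Of 7 listed genes, 5 had a row in the authors' deposited table of 7762 genes, namely Sgs3, Sgs5, Sgs7, Sgs8 and Eig71Ee. The names Sgs1 and Sgs4 had no row and were not analysed here. The study sequenced mRNA from 3 wing disc samples and 3 haltere disc samples. All 6 came from wild-type larvae of the Canton S strain in the wandering phase of the third instar, and the discs are the larval epithelia that give rise to the wing and to the haltere, the small balancing organ. No value for a single sample was analysed here, so library depths and the spread among samples are unknown, and the authors' edgeR p-values are the only deposited measure of error.

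In the third larval instar the salivary gland fills with a protein glue. At the end of that instar the larva expels the glue, which fixes the pupal case to its support. A rising level of the steroid hormone ecdysone switches the glue genes on in the gland, and the later, higher pulse that starts metamorphosis switches them off while other genes of the gland come on. Sgs3, Sgs1, Sgs4 and Eig71Ee encode mucin-type proteins, with long repeats that carry many sugar chains. Sgs7 and Sgs8 encode short, related proteins without such repeats, and Sgs5 encodes a further glue protein without them. Eig71Ee (also called gene VII) is unlike the Sgs genes in its setting, since it lies among the Eig71E genes that the gland switches on late, and its protein has also been described in the clot of larval blood.

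Positions are given for build dm6, which the submitters' processing notes name, from an Ensembl annotation of the same assembly. Sgs8 (3L:11508967-11509394, minus strand), Sgs7 (3L:11509861-11510247, plus strand) and Sgs3 (3L:11512221-11513402, plus strand) form a cluster of 4.44 kb. Sgs8 and Sgs7 point away from each other across 466 bases, and 1973 bases part Sgs7 from Sgs3. The other measured genes lie apart from this cluster, Eig71Ee at 3L:15654472-15656010 on the minus strand and Sgs5 at 3R:17595362-17596112 on the plus strand. No other gene of this annotation overlaps any of the 5. Of the genes with no row, Sgs1 lies at 2L:4937409-4941423, and Sgs4 at X:3250089-3251040 within the span of dnc (dunce).

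The annotation gives 1 transcript for each of the 7 genes. The coding sequences run to 74 residues for Sgs7, 75 for Sgs8, 163 for Sgs5 and 287 for Sgs4. They are longer for Sgs3 with 307, Eig71Ee with 445 and Sgs1 with 1286. In 5 of the 7 genes (Sgs1, Sgs3, Sgs7, Sgs8 and Eig71Ee) the first coding exon holds exactly 28 coding bases and is followed by a short intron of 53 to 73 bases. Among all 13986 protein-coding genes of the annotation, 60 have a transcript with a first coding exon of that length, which is 0.429%. Sgs5, with 3 exons, and Sgs4, with a single exon, do not share this layout. The layout was noticed after the annotation had been seen and is given as a description.

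**Figure D1:**
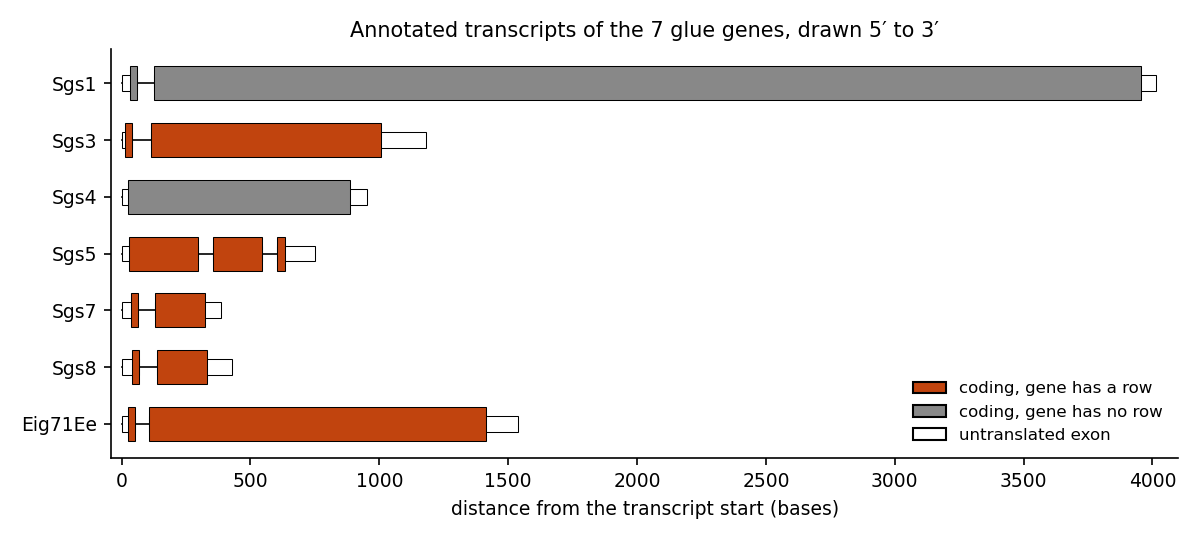
Annotated transcripts of the 7 glue genes, with the distance from the transcript start in bases on the horizontal axis and each gene drawn in its direction of transcription. Filled boxes are coding, open boxes untranslated and lines introns; the short first coding exon of 28 bases is seen in Sgs1, Sgs3, Sgs7, Sgs8 and Eig71Ee and not in Sgs4 or Sgs5.

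All 5 measured glue genes were lower in wing discs than in haltere discs. Which tissue stands on top of the fold change is not stated, and negative values are read here as lower in wing discs because Ubx, the homeotic gene of the haltere segment, has a log2 fold change of -5.22 in the authors' deposited table. All 5 glue genes had the sign of Ubx, so every direction given here rests on that reading.

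Sgs5 had the most negative log2 fold change of the 5 in the authors' deposited table, at -4.19, with a mean expression over both tissues of 4.87 log2 CPM and an FDR (edgeR) of 0.00158. Sgs7 followed in the authors' deposited table with a log2 fold change of -3.98, a mean of 5.11 log2 CPM and an FDR (edgeR) of 0.00117. These had the highest mean CPM of the 5 as well, and they lie on different chromosome arms. Sgs8, the divergent neighbour of Sgs7, was at a log2 fold change of -3.46 with a mean of 3.29 log2 CPM in the authors' deposited table, and its FDR (edgeR) was 0.00627. For Sgs3, the mucin-type gene of the same cluster, the authors' deposited table gave a log2 fold change of -3.24, a mean of 3.59 log2 CPM and an FDR (edgeR) of 0.00627. Eig71Ee had the smallest change of the 5 in the authors' deposited table, a log2 fold change of -2.97 with a mean of 3.27 log2 CPM and an FDR (edgeR) of 0.00491.

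At an FDR under 0.05 in the authors' deposited table, all 5 measured glue genes were called, each in the negative direction. Of all genes in the authors' deposited table, 0.876% were called in that direction and 1.34% in either direction. The members were picked with these values in view, so the count describes them and supports nothing. Their median log2 fold change was -3.46, beside a median of 0.00047 over all genes of the authors' deposited table. No call was kept under a stricter adjustment. After a Bonferroni adjustment 0 of the 5 passed 0.05 on the authors' deposited p-values, beside 0.348% of all genes in the negative direction. The Bonferroni-adjusted edgeR p ran from 0.0596 for Sgs7 to 0.426 for Sgs8. At an unadjusted p under 0.05 all 5 passed in the authors' deposited table, beside 2.73% of all genes in the negative direction.

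By size of change the glue genes stood near the negative end of the authors' deposited table. Ranked from the most negative fold change, Sgs5 was at place 8 of 7762, Sgs7 at 12, Sgs8 at 16, Sgs3 at 19 and Eig71Ee at 25. Their p-values placed them less far forward in the authors' deposited table, from 51 for Sgs7 to 68 for Sgs8. Ubx stood at place 3 by fold change and at place 2 by p-value in the authors' deposited table. Of the 25 genes with a change at least as negative as that of Eig71Ee, all 25 were called in the authors' deposited table.

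**Figure D2:**
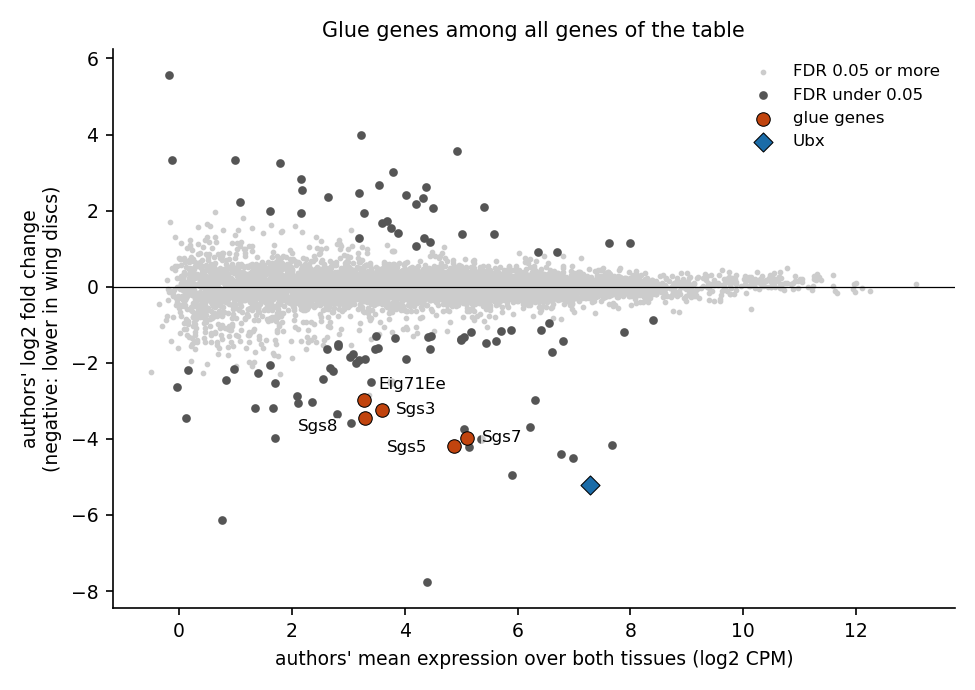
Each point is 1 gene of the authors' deposited table, with its mean expression over both tissues in log2 CPM on the horizontal axis and its log2 fold change on the vertical axis (negative means lower in wing discs). The 5 glue genes lie between -4.19 and -2.97, well below the bulk of genes of like expression, and Ubx lies at -5.22.

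The difference can be put as a level in each tissue if the deposited mean is taken as the log2 of the plain mean of both tissues and split by the fold change. These implied levels are arithmetic on the authors' deposited table and have no replicate error. Sgs7 then had 4.13 CPM in wing discs and 65.0 CPM in haltere discs. Sgs5 had an implied 3.03 CPM in wing discs and 55.4 CPM in haltere discs. Both took more reads than the other glue genes in either tissue. For Sgs3 the implied level was 2.31 CPM in wing discs and 21.8 CPM in haltere discs. Eig71Ee had 2.19 CPM in wing discs and 17.2 CPM in haltere discs by the same arithmetic. Sgs8 had an implied 1.62 CPM in wing discs and 17.9 CPM in haltere discs. Summed over the 5 the implied level was 13.3 CPM in wing discs and 177 CPM in haltere discs. In the mean over both tissues the 5 genes together made up 0.0167% of the CPM assigned to genes, and Sgs5 and Sgs7 held 66.9% of that glue share.

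Levels of different genes can be compared only per length of transcript. Per kilobase of annotated exon, the mean level over both tissues was highest for Sgs7, at 108 CPM per kb, and was 45.9 CPM per kb for Sgs5. Sgs8 followed at 27.2 CPM per kb and Sgs3 at 10.9 CPM per kb. Eig71Ee was last at 6.51 CPM per kb. Among the 5 genes this order differed from that by mean CPM in 1 place, since Sgs8 stood above Sgs3 per kb and below it by CPM. With exon lengths available for 7654 genes, the implied wing disc level per kb put Sgs7 at the percentile 61.8 of all genes, and the implied haltere disc level per kb put it at 97.8. For Eig71Ee, the lowest of the 5, those percentiles were 12.2 in wing discs and 58.1 in haltere discs. Sgs7 and Sgs8 have exon lengths of 321 and 359 bases, and how fragment size selection in a paired-end library treats transcripts of that length was not tested.

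The authors' test left a wide error around each of these changes. A standard error was worked back from each fold change and p-value as if the test were a normal one, which makes it rough, since the kind of edgeR test is not stated. From the authors' deposited table it was 0.95 for Sgs5, 0.89 for Sgs7, 0.86 for Sgs8, 0.80 for Sgs3 and 0.72 for Eig71Ee. The median of this quantity was 0.32 over the 7695 genes that allow it, it was 0.31 for Ubx, and 4.28% of those genes had a value as high as that of Eig71Ee or higher. The approximate 95% interval of the log2 fold change ran from -6.06 to -2.32 for Sgs5, and from -4.39 to -1.55 for Eig71Ee. On a linear scale Sgs7 was 15.7-fold lower in wing discs than in haltere discs, with an approximate interval of 4.71 to 52.6. The same ratio for Eig71Ee was 7.85, with an interval of 2.93 to 21.0. No interval of the 5 reached 0, which follows from the p-values under 0.05 and adds nothing to them.

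The order of the 5 by fold change is within this error. The approximate intervals overlapped for all 10 pairs of glue genes. In 7 of the 10 pairs the log2 fold changes differed by less than the rough standard error of either gene, and the most distant pair, Sgs5 and Eig71Ee, differed by 1.22. The genes were measured in the same libraries, so their errors may be shared, and the pairs were not tested. Sgs7 and Sgs8 are related in sequence, and how the authors' counting treated reads that match both is not given in the sources used here, so the split between these genes is uncertain.

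**Figure D3:**
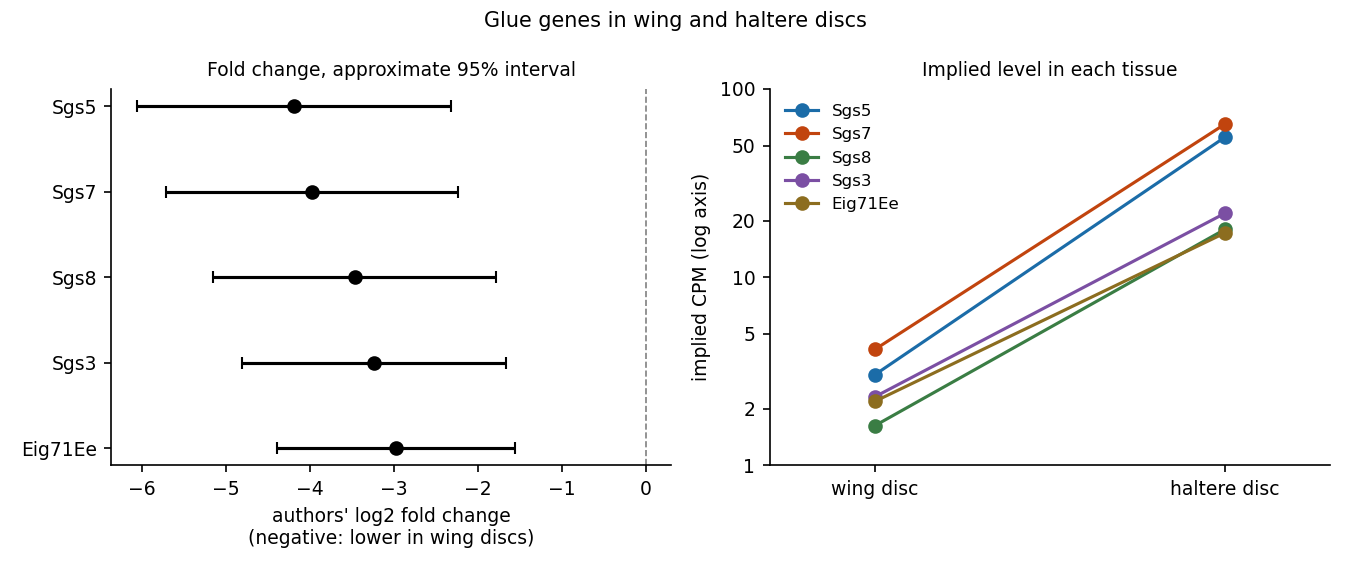
The left panel gives the authors' log2 fold change of each measured glue gene (negative means lower in wing discs). Bars are the approximate 95% interval from the deposited p-value. The intervals overlap one another, and none reaches 0 because each p-value is under 0.05. The right panel gives the implied CPM on a log axis, with wing discs left of haltere discs and 1 line per gene, running for Sgs7 between 4.13 CPM in wing discs and 65.0 CPM in haltere discs.

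Other secretion genes of the gland gave a single value. Of 15 listed (Sgs5bis, the new glue genes ng1 to ng4, and the other 10 Eig71E genes), only ng3 had a row. It stood at a log2 fold change of -1.55 with a mean of 0.21 log2 CPM and a p-value (edgeR) of 0.11 in the authors' deposited table, and was not called. Sgs5bis lies beside Sgs5, and the other Eig71E genes lie around Eig71Ee, and these neighbours were not analysed here.

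Genes that mark the gland itself had smaller fold changes than the glue genes. Of 9 listed, 5 had a row in the authors' deposited table. By edgeR 0 of the 5 were called at an FDR under 0.05, and 0 had an unadjusted p under 0.05. A count of 0 among 5 says little where 1.34% of all genes were called. All 5 were negative, with a median log2 fold change of -0.37. The most specific of them is sage, a transcription factor of the salivary gland that acts with the forkhead protein on gland genes. Its log2 fold change was -0.52 at a mean of 2.02 log2 CPM in the authors' deposited table, with a p-value (edgeR) of 0.321. The other 4 are also used outside the gland, which limits them as markers. For eyg (eyegone), which is expressed in the notum part of the disc, the authors' deposited table gave a log2 fold change of -0.47 with a p-value (edgeR) of 0.107, and for its relative toe it gave -0.11. The sensory organ gene sens had a log2 fold change of -0.37, and CrebA, a regulator of secretory capacity, one of -0.07, in the authors' deposited table. The gland genes fkh, PH4alphaSG1, PH4alphaSG2 and Scr had no row. Summed implied levels of the 5 with a row were 102 CPM in wing discs and 118 CPM in haltere discs. Of these, CrebA, used also outside the gland, had 57.4 CPM in wing discs and 60.3 CPM in haltere discs. For sage the implied level was 3.34 CPM in wing discs and 4.77 CPM in haltere discs.

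Genes of the machinery that builds and releases glue granules lay close to 0. All 14 listed genes had a row in the authors' deposited table, and 0 were called by edgeR, and 0 had an unadjusted p under 0.05. A count of 0 calls among 14 says little where 1.34% of all genes were called. Their log2 fold changes ran from -0.38 for btsz (bitesize, a synaptotagmin-like protein) to 0.16 for Rab1, with a median of -0.09 in the authors' deposited table. The 3 with the smallest p-values (edgeR) in the authors' deposited table were pgant9, btsz and zip, at p-values of 0.25, 0.295 and 0.497. Also among the 14 were pgant4, which encodes an enzyme that starts sugar chains on mucins, at -0.09, and the SNARE gene Snap24 at -0.15, both log2 fold changes from the authors' deposited table. These genes serve secretion or cell shape in many tissues.

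Regulators and targets of the ecdysone response were examined because the hormone controls the glue genes. Of 17 listed, 16 had a row in the authors' deposited table, of which 0 were called by edgeR. A count of 0 among 16 says little where 1.34% of all genes were called. At an unadjusted p under 0.05 there was 1 gene, beside 2.73% of all genes in the negative direction. That gene was Cyp18a1, which encodes an enzyme that breaks ecdysone down, at a log2 fold change of -1.23 with a mean of 0.57 log2 CPM and a p-value (edgeR) of 0.0315 in the authors' deposited table. The median log2 fold change of the 16 was -0.26, and 12 of them were negative. The receptor gene EcR had a log2 fold change of -0.07, and its partner usp one of -0.35, in the authors' deposited table. For br (broad), whose products act on the glue genes directly, the authors' deposited table gave a log2 fold change of -0.31 with a p-value (edgeR) of 0.275. The early genes Eip74EF and Eip75B stood at -0.37 and -0.40, and the nuclear receptor gene Hr4 at -0.46 with a p-value (edgeR) of 0.0824, all log2 fold changes from the authors' deposited table.

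Most markers of fat body and muscle had the sign of the glue genes. Of all genes in the authors' deposited table, 0.876% were called negative. Of 8 listed fat body genes 6 were called there, all negative, with a median log2 fold change over the 8 of -4.19. Those called were the storage protein genes Lsp1alpha, Lsp1beta, Lsp1gamma and Lsp2, Fbp1, which encodes a receptor for storage proteins, and the lipoprotein gene apolpp (listed as Rfabg). Lsp1gamma was the most negative, at -4.95, and the lipid carrier gene Apoltp, which was not called, was at 1.41, both log2 fold changes from the authors' deposited table. The summed implied level of the 8 was 60.9 CPM in wing discs and 1115 CPM in haltere discs. Of 10 listed muscle genes 7 were called in the authors' deposited table, all negative, beside the same 0.876% of all genes. The median log2 fold change of the 10 was -1.52. Those called were up, Act57B, bt, wupA, Mlc1, Mlc2 and Tm2, all genes of the contractile apparatus, and 3 of them passed after a Bonferroni adjustment. The summed implied level of the 10 was 137 CPM in wing discs and 315 CPM in haltere discs. The log2 fold changes in the authors' deposited table ran from -4.19 to -2.97 for the glue genes, from -4.95 to 1.41 for the fat body genes and from -1.92 to -0.60 for the muscle genes, and differences between these lists were not tested. The rough standard errors ran from 0.50 to 1.07 for the fat body genes and from 0.29 to 0.46 for the muscle genes. What part RNA of these tissues, or of the salivary gland, had in the glue gene values was not tested. In whole discs, fewer cells of a type and less RNA per cell cannot be told apart.

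Of the lists for the remaining tissues, only that of the imaginal disc held a called gene. All 7 hemocyte genes had a row and were negative in the authors' deposited table, with a median log2 fold change of -0.29. Of the 7, 0 were called by edgeR, beside 1.34% of all genes, and 0 had an unadjusted p under 0.05. The 3 with the smallest p-values (edgeR) in the authors' deposited table were Pxn at 0.288, srp at 0.393 and Hml at 0.471. Of 6 listed gut genes only Jon65Aiv, a digestive protease gene, had a row, at a log2 fold change of 0.81 with a p-value (edgeR) of 0.555 in the authors' deposited table. Of 4 listed neuronal genes 2 had a row, elav with a log2 fold change of 0.08 and Syt1 with one of -2.04 in the authors' deposited table, the second with an FDR (edgeR) of 0.169. All 11 listed imaginal disc genes had a row in the authors' deposited table. Their means ran from 4.34 log2 CPM for Dll to 9.60 for hth, beside a median of 4.39 log2 CPM over all genes. Of the disc genes 1 was called, Dll, at a log2 fold change of 1.27 in the authors' deposited table, against 0.464% of all genes called as higher in wing discs. By edgeR 4 of the 11 had an unadjusted p under 0.05, namely Dll, nub, vg and wg. The share of all genes at that threshold was worked out only for the negative direction, at 2.73%. Of the 4, only wg lies in that direction. The log2 fold changes were 0.81 for nub, 0.82 for vg and -0.57 for wg in the authors' deposited table.

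**Figure D4:**
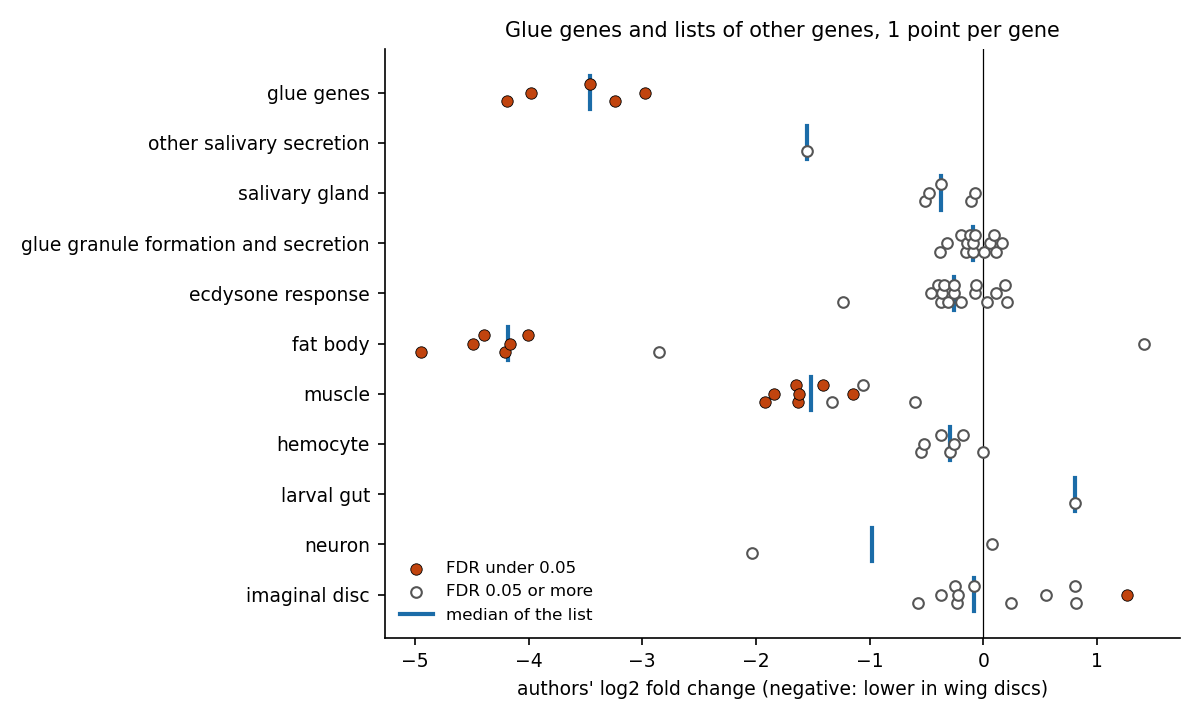
Each point is 1 gene, placed by the authors' log2 fold change (negative means lower in wing discs), in rows for the glue genes and for 10 lists of other genes; filled points have an FDR under 0.05 and vertical bars are medians. The median is -3.46 for the glue genes, -4.19 for the fat body genes (with Apoltp at 1.41), -0.37 for the salivary gland list, -0.09 for the granule list and -0.26 for the ecdysone list (with Cyp18a1 at -1.23).

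The genes most like the glue genes in both fold change and level were sought over the single comparison available. Likeness was the straight-line distance to the glue genes' median in the plane of log2 fold change and mean log2 CPM. The nearest was fon (fondue), a gene of the blood clot, at a distance of 0.55, with a log2 fold change of -3.58 and an FDR (edgeR) of 0.000185 in the authors' deposited table. Next came the fat body gene Fbp2 at a distance of 0.66. Its log2 fold change was -2.85 with an FDR (edgeR) of 0.169 in the authors' deposited table, so it was not called although its change was close to that of Eig71Ee. TotA, a secreted stress protein gene, lay at a distance of 0.81 with a log2 fold change of -3.34 in the authors' deposited table. The muscle troponin gene TpnC73F and the gene CG12310 followed at 0.97 and 0.99. Their log2 fold changes were -2.51 for TpnC73F and -2.49 for CG12310 in the authors' deposited table. With 2 coordinates from 1 contrast, such likeness says little beyond the values themselves.

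None of the nearest measured genes on either side of the glue loci was called. Around the 5 loci (the cluster counted as 1, and those of Sgs1 and Sgs4 included) there were 10 such neighbours, at distances of 2.83 to 122 kb. By edgeR 0 of the 10 were called at an FDR under 0.05 in the authors' deposited table, where 1.34% of all genes were called, so a count of 0 among 10 says little. Of the 10, 0 had an unadjusted p under 0.05, and the smallest unadjusted p among them was 0.11, for ng3. Beside the Sgs8 to Sgs3 cluster, chrb (charybde, a growth inhibitor) was at a log2 fold change of -0.46 with a p-value (edgeR) of 0.153, and Fuca, a fucosidase gene, at 0.52 with a p-value of 0.373 in the authors' deposited table. Beside Sgs5 the authors' deposited table gave a log2 fold change of 0.28 for Prx3 and of 0.03 for sll. Beside Sgs1 lay CG2837 at -0.36 and mRpL24 at 0.41, and beside Sgs4 lay ng3, given above, and dm (Myc) at 0.40, as log2 fold changes from the authors' deposited table. The neighbours of Eig71Ee, CG7372 and pgant8, had log2 fold changes of -0.09 for CG7372 and -0.18 for pgant8 in the authors' deposited table.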

How the data were processed

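Libraries were made from mRNA of wing and haltere discs with a strand-keeping kit and read as paired ends of 150 bases, per the labels' protocols. The submitters' processing notes name HISAT2, HTSeq, edgeR and build dm6, without versions or settings. Per the file headers, the authors' table gives 1 row per gene with a log2 fold change, a mean log2 CPM, a p-value and an FDR, which is the p-value after adjustment. The deposited FDR equals a Benjamini-Hochberg value over all rows to within 6.24e-06. The filter on low values, the kind of edgeR test and the strand setting are not given in the sources used here. The table also holds 5 summary lines of the read counter, which make up 43.3% of the summed CPM and were left out of all gene counts, so CPM values are relative to a total that includes reads of no gene. There were 0 columns of values per sample. With no counts per sample, no test across samples was run and the authors' edgeR FDR was used.

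Computed here with pandas 2.3.3 and scipy 1.17.1 were ranks, implied levels, rough standard errors and adjustments, of which the last 2 kinds were tested on simulated data. The simulated p-values came from the same normal formula, so they checked the arithmetic and not how well it suits edgeR p-values. Stricter thresholds, another adjustment and a minimum expression were tried as alternatives. Exon lengths and positions came from Ensembl release 115, and names from a RefSeq table (Release 6 plus ISO1 MT), to which 98.6% of the 7762 genes matched. Named were all members, Ubx, called or otherwise leading genes of each list, the nearest measured neighbour on each side of each locus and the 5 genes most alike. The members and lists were chosen with earlier results of these data known. Further list members were named after their values were seen.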

Additional observations from a re-analysis of the deposited data

How the results depend on the processing

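The alternatives reuse the deposited p-values, so no fold change can move. All 5 glue genes stayed called with the FDR held under 0.01 and with a log2 change of at least 1 required. They also stayed called with a mean of at least 1 log2 CPM, and with the summary lines removed, each with new adjustment. The 5 were chosen with their values known and already met the limits on FDR, change and mean, so these counts support nothing. Under the Bonferroni adjustment the count of glue genes was 0, that of muscle genes was 3 against 7, and that of fat body genes was 5 against 6. For the 3 lists with a called gene, 14 of 15 counts under the alternatives stayed within 1.5 times, and the 7 lists with a count of 0 say nothing here. The median of the glue genes was -3.46 also with the minimum of 1 log2 CPM, which all 5 meet. Adjusted edgeR p-values of the glue genes ran from 0.00119 to 0.00622 with the minimum mean and from 0.00117 to 0.00627 without the summary lines.

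No paired analysis was possible because no value for a single sample was analysed here. For the same reason fits without a replicate and DESeq2 were not run, so whether 1 library decides a value is not known. What depth limits is unknown as well.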
